A study of Mus musculus with 10 samples.

Results

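The genes described here were 9 actin binders of 3 families in single mouse embryos: the actin-binding LIM proteins *Ablim1* and *Ablim3*, the profilins *Pfn1* and *Pfn2*, and the coronins *Coro1a*, *Coro1b*, *Coro1c*, *Coro2a* and *Coro2b*. They were chosen by name from a table of 20974 genes, and all 9 were among the 15603 genes tested. The choice was made from the difference between genotypes in these same embryos, so that difference is given for them as a description, with no p-value. RNA-sequencing compared 5 *Rreb1*+/+ and 5 *Rreb1*-/- embryos at E7.5, during gastrulation, and asked what loss of Rreb1, a zinc finger transcription factor, changes in the transcriptome. All were offspring of *Rreb1*+/- intercrosses with the strain label CD1, and the study's methods describe a mixed background. Each embryo, freed of its parietal endoderm for genotyping, gave 1 library. The mutant allele lacks most of the coding sequence of 1 exon, was made with CRISPR-Cas9 and exists as lines that differ in the length of the deletion. Which line an embryo came from was not given in the sources used here.

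Actin filaments grow from a pool of monomers, and their growth, branching and removal are set by proteins that bind monomers or filaments. Profilins bind actin monomers and deliver them to growing filament ends, in part through formins and Ena/VASP proteins. Coronins bind filaments and act with the Arp2/3 complex, which starts branches, and with cofilin, which severs filaments. Actin-binding LIM proteins join filaments through a villin headpiece to partners of their LIM domains. In the gastrulating embryo, remodelling of actin underlies the shape of epithelia and the movement of cells out of the primitive streak.

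Values are normalized counts, that is, reads per gene divided by 1 size factor per embryo, from 31467767 to 35786876 reads in genes per embryo. The lowest count of a member in any embryo was 46 reads. *Rreb1* itself was at 2365 to 2924 in the embryos labelled *Rreb1*+/+ and at 3988 to 5715 in those labelled *Rreb1*-/-. The deposited count covers the whole gene and not the deleted exon alone, so it does not check the genotype labels. Summed counts of 4 Y-linked genes were at most 3.82 in every *Rreb1*+/+ embryo and in mutant replicate 2 (2.12), and at 5849 to 9171 in the other 4 mutants, so genotype and sex were largely confounded. Markers of the epiblast (5 of 5), primitive streak and mesoderm (6 of 6), visceral endoderm (VE; 7 of 7) and extraembryonic ectoderm (7 of 7) were all above the filter, as the label of whole embryo implies. In bulk RNA from whole embryos, fewer cells of a type and less RNA per cell cannot be told apart. The paper also describes mutants as smaller than their wild-type littermates from E7.5 and as delayed in development. The part of this delay in the values was not tested.

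**Figure D1:**
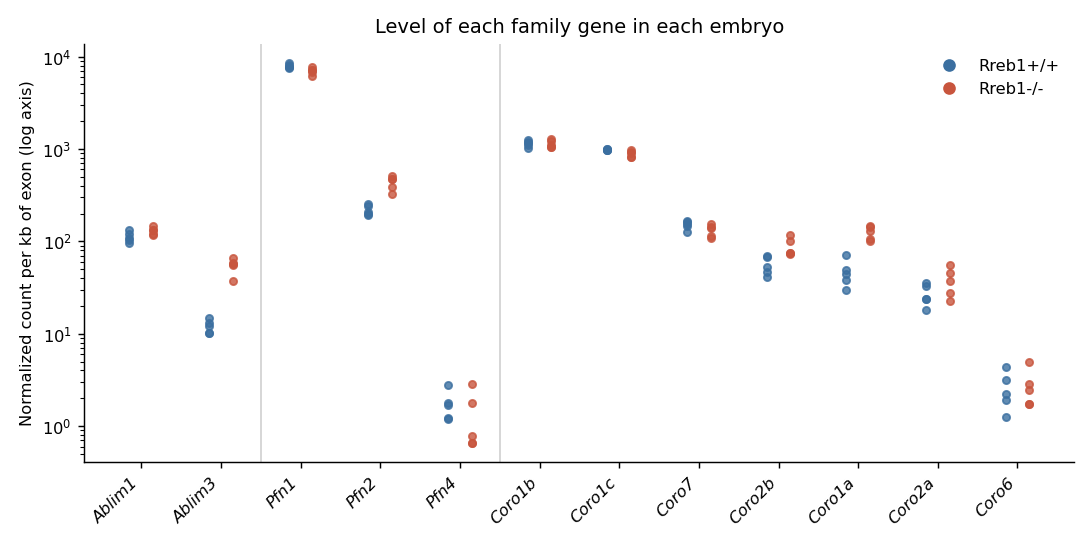
Normalized count per kb of exon (log axis) of the 9 members and of *Pfn4*, *Coro6* and *Coro7* in each of 10 embryos, *Rreb1*+/+ in blue and *Rreb1*-/- in red. *Pfn1* lies above 6240 in every embryo, whereas *Pfn4* and *Coro6* lie below 5 in every embryo.

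The paralogs of each family differed widely in level. To compare genes, counts were divided by the length of all exons of a gene, and the mean ± SD over 5 *Rreb1*+/+ embryos is given per kb. *Pfn1*, the widely expressed profilin, was the most abundant at 7921 ± 406, 36.1 times the level of *Pfn2* at 219 ± 28.1. *Ablim1* was at 112 ± 14.2, 9.27 times *Ablim3* at 12.1 ± 1.99. Between these neighbours no embryo of either genotype crossed the other paralog's range.

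Among coronins *Coro1b* (1146 ± 78.9) and *Coro1c* (990 ± 15.7) stood well above the rest. Their order depended on the length used. With the longest coding transcript in place of all exons, a choice made after the data were seen, *Coro1b* was at 0.71 times *Coro1c*. Next came *Coro7*, a coronin of the Golgi that is not among the 9, at 151 ± 15.4. *Coro2b* (55.4 ± 12.7), *Coro1a* (46.7 ± 15.5) and *Coro2a* (26.6 ± 7.14) followed, and in *Rreb1*+/+ embryos the ranges of neighbours in this order overlapped. In *Rreb1*-/- embryos *Coro1a* (125 ± 21.2) stood above *Coro2b* (88.3 ± 20.5), again with overlapping ranges, and above *Coro2a* (37.8 ± 13.3) without overlap. *Pfn4* and *Coro6* were low, with mean normalized counts of 6.45 to 8.29 in each genotype, and were not tested.

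**Figure D2:**
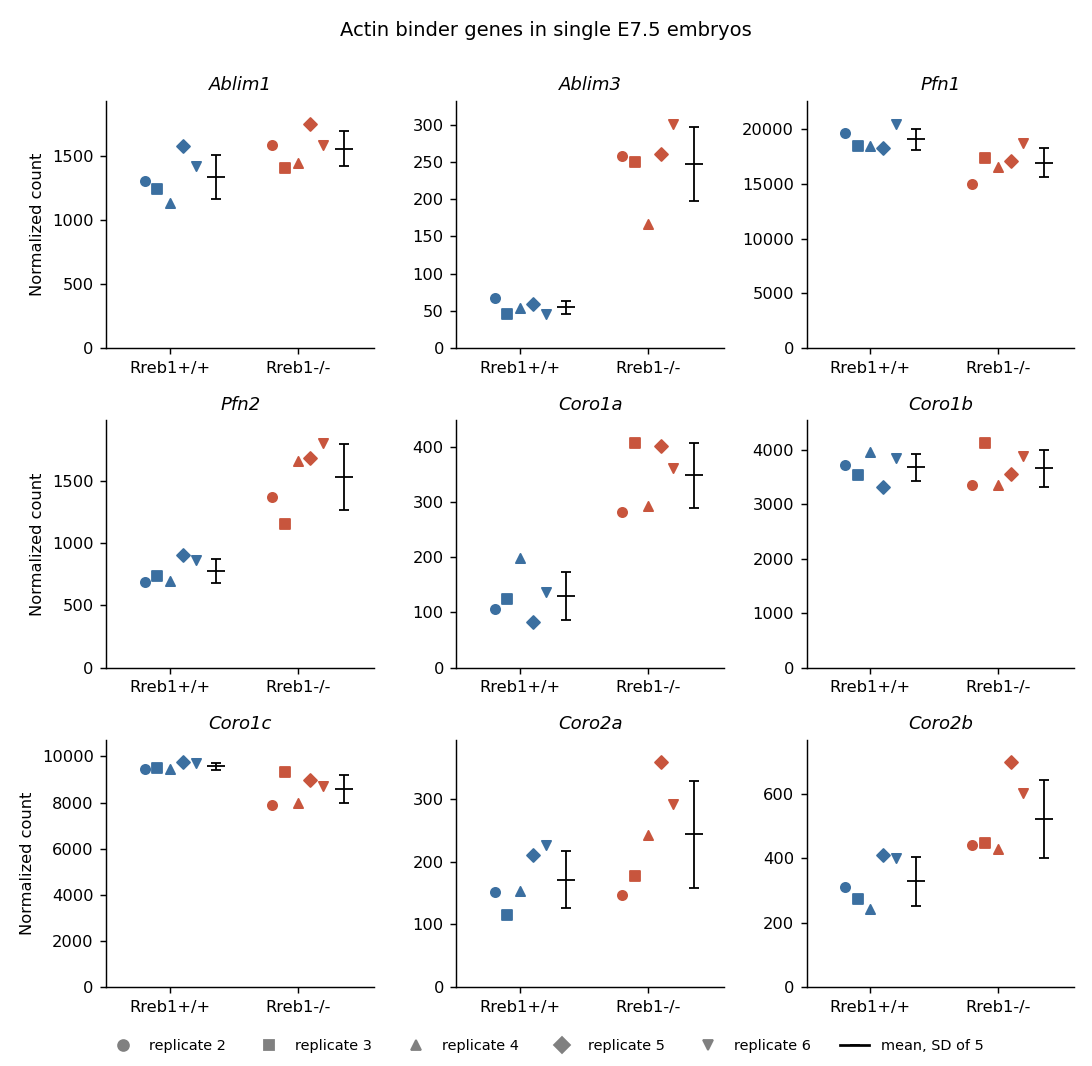
Normalized count of each member in each embryo, with a marker shape for each replicate number and the mean and SD of 5 embryos in black. *Ablim3*, *Pfn2*, *Coro1a* and *Coro2b* lie higher in all *Rreb1*-/- embryos than in all *Rreb1*+/+ embryos, and *Coro1c* lies lower.

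Of the 9 members, 3 were called higher in *Rreb1*-/- embryos, *Ablim3*, *Pfn2* and *Coro1a*, and none was called lower with limma at an adjusted p under 0.05. Over all genes tested, 3.11% were called higher and 1.15% lower. Values did not overlap between genotypes for 4 members that were higher (4.24% of all genes tested) and 1 that was lower (2.46%). Since the members were chosen on this difference, nothing is read from these counts, and calls of members are not used further.

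*Ablim3*, the least abundant of the members per kb in *Rreb1*+/+ embryos, had the largest difference. Its normalized counts were 67.2, 46.2, 54.4, 59.5 and 46.2 in *Rreb1*+/+ replicates 2 to 6. They were 257, 249, 167, 261 and 301 in *Rreb1*-/- replicates 2 to 6. The lowest mutant embryo, replicate 4, was thus far above the highest *Rreb1*+/+ embryo. The log2 fold change was 2.14 (SE 0.18), a ratio of means of 4.52. *Ablim1*, the more abundant of the pair, was at 1309, 1242, 1133, 1575 and 1423 in *Rreb1*+/+ embryos. In mutants it was at 1587, 1409, 1443, 1754 and 1583, and 3 of these 5 were above the *Rreb1*+/+ range. Its log2 fold change was 0.22 (SE 0.10). As a share of the summed level of *Ablim1* and *Ablim3* per kb, *Ablim3* made up 9.80% ± 1.70 (SD, n = 5) in *Rreb1*+/+ and 29.3% ± 3.89 (SD, n = 5) in *Rreb1*-/- embryos. The summed level of both was 124 ± 14.6 per kb in *Rreb1*+/+ and 185 ± 19.3 in *Rreb1*-/- embryos, and the ranges (107 to 145 and 158 to 204) did not overlap.

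The profilins differed between genotypes with opposite signs. *Pfn2*, the profilin known best from the nervous system, was at 688, 733, 699, 905 and 862 in *Rreb1*+/+ embryos. It was at 1372, 1158, 1663, 1683 and 1808 in *Rreb1*-/- embryos, so the groups were apart. The log2 fold change was 0.97 (SE 0.13), a ratio of means of 1.98. *Pfn1* was at 19627, 18464, 18436, 18224 and 20493 in *Rreb1*+/+ embryos. In mutants it was at 15007, 17335, 16485, 17086 and 18691. Only mutant replicate 6 reached the *Rreb1*+/+ range, and the log2 fold change was −0.17 (SE 0.06). Because *Pfn1* is so much more abundant, *Pfn2* made up 2.70% ± 0.35 (SD, n = 5) of profilin level per kb in *Rreb1*+/+ and 5.81% ± 0.85 (SD, n = 5) in *Rreb1*-/- embryos. The profilin sum per kb was at 7834 to 8766 in *Rreb1*+/+ and 6631 to 8283 in *Rreb1*-/- embryos, ranges that overlapped.

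**Figure D3:**
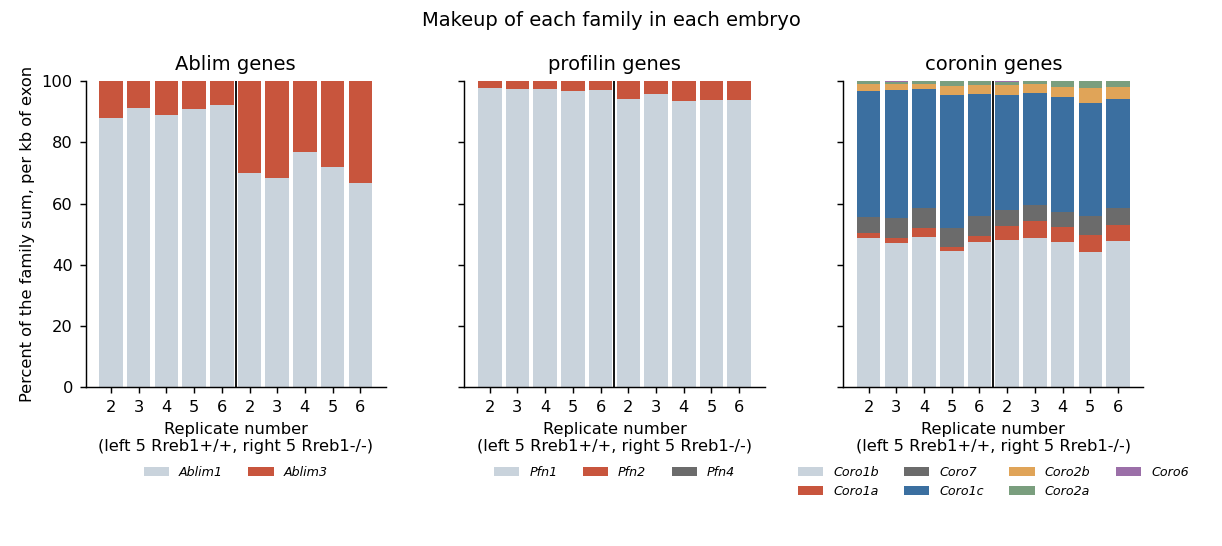
Share of each gene in the summed level of the genes shown of its family (percent, per kb of exon) in each embryo, with 5 *Rreb1*+/+ bars left of the line and 5 *Rreb1*-/- bars right of it. *Ablim3* takes 7.88 to 11.9% in *Rreb1*+/+ and 23.3 to 33.4% in *Rreb1*-/- embryos, whereas *Coro1b* keeps 44.1 to 49.1% in all.

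Sequences before a RefSeq start are shown for the 2 profilins among the members and for *Coro1a*. *Coro1a* was the coronin with the largest log2 fold change among the members. The sequences are the 250 bases before the RefSeq transcript start on GRCm38.p6, 5′ to 3′ on the minus strand in each case, with CpG in capitals. *Pfn1* lies at chr11:70654651-70654900, *Pfn2* at chr3:57847758-57848007 and the first of the *Coro1a* starts at chr7:126704817-126705066. The *Pfn2* and *Coro1a* stretches lie within the bounds of these genes in GENCODE M21, which has starts further upstream. Only the *Pfn1* stretch lies outside its gene.
Pfn1: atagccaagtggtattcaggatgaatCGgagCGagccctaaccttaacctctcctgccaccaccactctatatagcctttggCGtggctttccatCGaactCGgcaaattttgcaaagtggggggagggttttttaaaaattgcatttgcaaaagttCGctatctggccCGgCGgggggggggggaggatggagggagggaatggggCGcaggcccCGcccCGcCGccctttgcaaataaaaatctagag
Pfn2: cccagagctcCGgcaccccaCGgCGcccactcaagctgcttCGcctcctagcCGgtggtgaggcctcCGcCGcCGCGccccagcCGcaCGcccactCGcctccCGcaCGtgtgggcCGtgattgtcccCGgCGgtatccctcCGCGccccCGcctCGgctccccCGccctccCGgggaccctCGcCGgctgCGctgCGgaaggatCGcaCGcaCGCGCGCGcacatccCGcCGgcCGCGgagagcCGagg
Coro1a: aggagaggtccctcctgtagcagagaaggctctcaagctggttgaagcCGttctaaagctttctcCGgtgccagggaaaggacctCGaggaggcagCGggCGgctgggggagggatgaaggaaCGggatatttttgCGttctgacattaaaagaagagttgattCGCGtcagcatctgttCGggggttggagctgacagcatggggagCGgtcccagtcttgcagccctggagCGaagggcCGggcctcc
The *Pfn2* stretch held 38 CpG at 78.0% G and C, against 12 CpG at 54.4% for *Pfn1* and 13 CpG at 58.8% for *Coro1a*. Such a stretch was not particular to *Pfn2*, since *Coro1c* held 34 CpG at 76.8% and a *Coro2a* start 33 at 73.6%. The median over all windows was 6 CpG. Windows of 300 bases, from 250 before to 50 after the start, were found for 7 members (13 windows), and none for *Ablim3* and *Coro1b*. The CArG box, bound by the serum response factor that controls many actin genes, was in none of the 13 windows and in 1.63% of 32851 windows. The letters ACCACCCC, a stretch of the RREB1 consensus searched on both strands, were in none of the 13 and in 1.54% of all windows.

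Coronins fall into type I (*Coro1a*, *Coro1b* and *Coro1c*), which are found at the leading edge of moving cells, and type II (*Coro2a* and *Coro2b*). *Coro1a*, best known from leukocytes, was at 106, 125, 199, 83.5 and 137 in *Rreb1*+/+ embryos. It was at 283, 407, 292, 401 and 361 in *Rreb1*-/- embryos, each above every *Rreb1*+/+ embryo. The log2 fold change was 1.46 (SE 0.21), a ratio of means of 2.69. Its spread was wide in *Rreb1*+/+ embryos, with a coefficient of variation of 33.3%, and narrower in mutants at 16.9%.

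Both abundant type I coronins differed little. *Coro1b*, which promotes the turnover of branched actin at the leading edge, was at 3709, 3541, 3961, 3317 and 3838 in *Rreb1*+/+ and 3356, 4122, 3350, 3544 and 3889 in *Rreb1*-/- embryos. These ranges largely coincided, with a log2 fold change of −0.01 (SE 0.07). *Coro1c*, known from cell migration, was at 9447, 9484, 9442, 9747 and 9720 in *Rreb1*+/+ embryos, a coefficient of variation of 1.59%. In mutants it was at 7906, 9341, 7994, 8974 and 8720, a coefficient of variation of 7.25%. Every mutant embryo was below every *Rreb1*+/+ embryo, although the log2 fold change was only −0.16 (SE 0.06).

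Both type II coronins were higher on average in mutants. *Coro2b*, known from neurons, was at 312, 274, 243, 411 and 399 in *Rreb1*+/+ embryos. It was at 440, 446, 427, 698 and 603 in *Rreb1*-/- embryos. The groups were apart by a narrow margin, 411 against 427, and the log2 fold change was 0.67 (SE 0.19). *Coro2a*, known from focal adhesions, was at 152, 115, 153, 211 and 227 in *Rreb1*+/+ and 147, 178, 243, 360 and 292 in *Rreb1*-/- embryos. These ranges overlapped, with a log2 fold change of 0.47 (SE 0.26). *Coro1a* made up 1.92% ± 0.58 (SD, n = 5) of coronin level per kb in *Rreb1*+/+ and 5.16% ± 0.47 (SD, n = 5) in *Rreb1*-/- embryos. The coronin sum per kb of all exons was 2419 ± 92.7 and 2414 ± 209 (SD, n = 5 each). By this length the family sum was at the same mean level while its makeup differed. Another length would give another weight to *Coro1c*, which was lower in mutants, so the equal sums hold for this length only. *Coro7*, outside the 9, was at 941 to 1233 in *Rreb1*+/+ and 813 to 1153 in *Rreb1*-/- embryos and was not called (log2 fold change −0.21, SE 0.11, adjusted p = 0.368, limma).

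Some reads of the coronins could belong to neighbours. On the opposite strand this depends on whether the counting used strand, which is not given in the sources used here. In GENCODE M21 (GRCm38), *Coro1a* (chromosome 7, 126699773 to 126707787) shares 26 exonic bases with *Bola2* on the opposite strand. *Bola2* had a mean of 1284 in *Rreb1*+/+ and 1306 in *Rreb1*-/- embryos, well above *Coro1a*. *Coro1b* (chromosome 19, 4148619 to 4154035) shares 432 with *Ptprcap* on the same strand and 45 with *Rps6kb2* on the opposite strand. *Ptprcap* had a mean of 9.30 in *Rreb1*+/+ and 6.39 in *Rreb1*-/- embryos, and *Rps6kb2* of 712 and 639. *Coro1c* (chromosome 5, 113842436 to 113908758) shares 372 with the antisense gene *Gm17122*, and *Coro2a* (chromosome 4, 46536937 to 46602202) shares 329 with *Gm16731*. The other members shared no exonic base with another gene. They lie at 57032733 to 57314919 on chromosome 19 (*Ablim1*), 61799392 to 61911824 on chromosome 18 (*Ablim3*), 70651850 to 70654644 on chromosome 11 (*Pfn1*), 57841895 to 57848079 on chromosome 3 (*Pfn2*) and 62419492 to 62537044 on chromosome 9 (*Coro2b*).

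**Figure D4:**
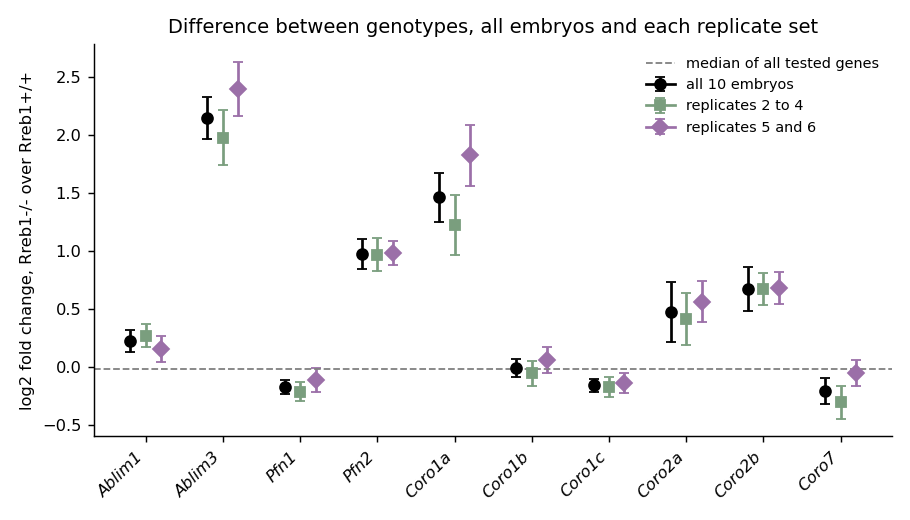
The log2 fold change (*Rreb1*-/- over *Rreb1*+/+) with its standard error for each member and *Coro7*, in all 10 embryos (black), replicates 2 to 4 (green) and replicates 5 and 6 (purple). The dashed line is the median of all genes tested, −0.02, and *Ablim3* is at 1.98 and 2.40 in the replicate sets.

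Within both genotypes, replicates 5 and 6 were above replicates 2 to 4 with no overlap for 3 of the 9 members and for 8.15% of all genes tested. *Pfn2* was at 688 to 733 in *Rreb1*+/+ replicates 2 to 4 and at 862 to 905 in replicates 5 and 6. In mutants it was at 1158 to 1663 and at 1683 to 1808. *Coro2a* and *Coro2b* also lay higher in replicates 5 and 6 of both genotypes with no overlap, *Coro2b* at 243 to 312 against 399 to 411 in *Rreb1*+/+ embryos and at 427 to 446 against 603 to 698 in mutants. *Acta2*, the smooth muscle actin, split in the same way, at 383 to 551 against 1455 to 1955 in *Rreb1*+/+ and at 36.1 to 71.0 against 1650 to 2150 in *Rreb1*-/- embryos. Marker sums split by these sets too. That of 6 primitive erythroid genes was 1059 to 1621 against 8098 to 12401 in *Rreb1*+/+ and 349 to 450 against 2738 to 3024 in *Rreb1*-/- embryos. The epiblast sum went the other way, 33907 to 49087 against 18935 to 20081 and 34391 to 48230 against 15095 to 17890. The labels do not say what sets these replicates apart, and the cause was not tested.

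All 9 members had the same sign of difference in replicates 2 to 4 as in all embryos, and 8 of 9 in replicates 5 and 6, where *Coro1b* was at 0.06. For *Pfn2* the log2 fold change was 0.97 in replicates 2 to 4 and 0.98 in replicates 5 and 6. For *Coro2b* it was 0.67 and 0.68. *Coro1a* had 1.22 and 1.82, and the difference between the sets was not tested. Fitting the replicate number as a block cannot change a log2 fold change here, since every number holds a single embryo of each genotype. Only the SE can change, and that of *Coro2b* was 0.08 in place of 0.19.

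Sex and genotype were largely confounded, since 4 of 5 mutants and no *Rreb1*+/+ embryo had a summed Y-linked count above 3.82. When summed Y-linked counts (log2) entered the fit as a covariate, the log2 fold change was 2.20 (SE 0.34) for *Ablim3* and 0.82 (SE 0.24) for *Pfn2*. It was 1.14 (SE 0.38) for *Coro1a* and 0.48 (SE 0.34) for *Coro2b*. Without the covariate the SE were smaller, 0.18, 0.13, 0.21 and 0.19 in this order. *Coro2a* went from 0.47 (SE 0.26) to −0.23 (SE 0.41). Mutant replicate 2, as low in summed Y-linked counts (2.12) as the *Rreb1*+/+ embryos, lay above the *Rreb1*+/+ range for *Ablim1*, *Ablim3*, *Pfn2*, *Coro1a* and *Coro2b*. It lay below that range for *Pfn1* and *Coro1c* and within it for *Coro1b* and *Coro2a*. For *Ablim3*, *Pfn2*, *Coro1a*, *Coro2b* and *Coro1c* this restates that all mutants lay outside the *Rreb1*+/+ range. The members were chosen on the difference between genotypes, so nothing on sex is read from this embryo.

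*Coro1a* is known from leukocytes, so markers of these cells are given beside it. Of 13 listed, 11 were in the table, and 7 of these were below the filter, *Ptprc*, *Cd52*, *Tyrobp*, *Fcer1g*, *Cd79a*, *S100a8* and *Nkg7*. The other 4, *Lyz2*, *Laptm5*, *Cd68* and *Csf1r*, were not called with limma. The summed count of the list was 192 to 361 in *Rreb1*+/+ and 138 to 369 in *Rreb1*-/- embryos, much of it from *Laptm5* and *Cd68*. *Laptm5* was at 66.9 to 126 in *Rreb1*+/+ and 43.5 to 69.9 in *Rreb1*-/- embryos (log2 fold change −0.81, adjusted p = 0.0539 with limma and 0.0132 with DESeq2). *Cd68* was at 74.8 to 119 and 69.0 to 130. *Ptprc*, the pan-leukocyte marker CD45, was at 40.3 in *Rreb1*+/+ replicate 5 and 28.2 in *Rreb1*-/- replicate 6, and at 2.9 or less in the other 8 embryos. The part of these cells in the values of *Coro1a* was not tested.

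*Pfn2* and *Coro2b* are known from neurons, so neuronal markers are given beside them. Of 10 listed, 3 were called higher in mutants and none lower with limma, *Tubb3* by 1.42, *Syt1* by 1.26 and *Map2* by 0.79 on the log2 scale (adjusted p = 0.00166, 0.00917 and 0.0334). None of the 3 was called with the Y-linked covariate (adjusted p = 0.176, 0.244 and 0.163, limma), and *Map2* was called in 3 of 10 fits that left out 1 embryo (adjusted p up to 0.0852, limma). Each of *Rreb1*+/+ replicates 3 to 6 and mutant replicates 2 to 4 took that call away when left out. The other 7, among them *Stmn2*, *Elavl3* and *Snap25*, were not called. The summed level was 1779 to 4746 in *Rreb1*+/+ and 3466 to 6567 in *Rreb1*-/- embryos. *Nefl* and *Nefm*, neither of them called, were at 839 and 1762 in *Rreb1*+/+ replicate 2. They were at 1446 and 801 in mutant replicate 2 and at 1612 and 1418 in mutant replicate 3. In the other embryos both were at 238 or less. Of 6 neurectoderm markers, none was called with limma. The VE marker *Afp* fell by 1.32 (adjusted p = 0.0157, limma; 0.184 with the Y-linked covariate), and the other 6 VE markers were not called. The part of these cell types in the members' values was not tested.

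Other genes of the actin cytoskeleton were taken from 11 lists by role, without the 9 members. Of 96 tested, 4 were called higher and 1 lower with limma, and their median log2 fold change was −0.05 against −0.02 over all genes. Called genes made up 3.11% and 1.15% of all genes tested in these directions. With the Y-linked covariate 1 was called higher and none lower, and with the replicate block 6 and 4.

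**Figure D5:**
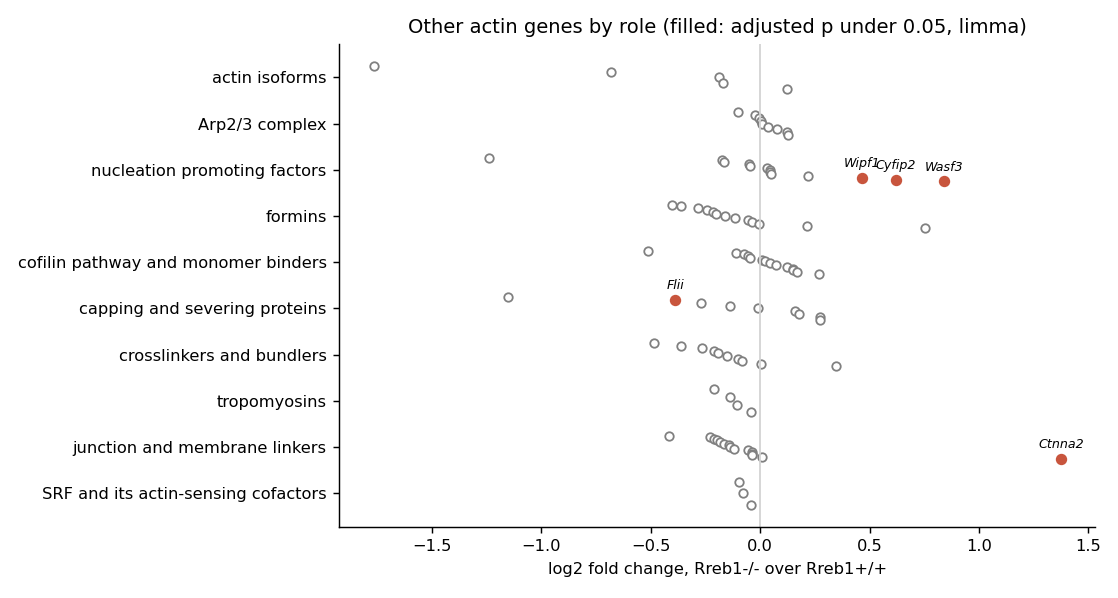
The log2 fold change (*Rreb1*-/- over *Rreb1*+/+) of tested actin genes in 10 lists by role, each point a gene, filled where the adjusted p was under 0.05 with limma. *Wasf3*, *Cyfip2* and *Wipf1* among nucleation promoting factors and *Ctnna2* among linkers lie to the right, and *Flii* to the left.

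Nucleation promoting factors, which switch on the Arp2/3 complex, held 3 of the 4 genes called higher, of 13 tested. *Wasf3*, which codes for a WAVE protein, was at 1086 to 1361 in *Rreb1*+/+ and 1971 to 2318 in *Rreb1*-/- embryos (log2 fold change 0.84, SE 0.08, adjusted p = 0.000184, limma). It was the one called also with the Y-linked covariate (adjusted p = 0.0404, limma). *Cyfip2*, a subunit of the WAVE complex, was at 720 to 956 in *Rreb1*+/+ and 1117 to 1740 in *Rreb1*-/- embryos (log2 fold change 0.62, SE 0.12, adjusted p = 0.0157, limma). *Wipf1*, the partner of WASP proteins, was at 560 to 661 and 715 to 974 (log2 fold change 0.47, SE 0.10, adjusted p = 0.0184, limma). Its call was lost without *Rreb1*+/+ replicate 3 or 4 (adjusted p up to 0.0525, limma). Of the 9 Arp2/3 subunits, on which they act, none was called with limma, none had an unadjusted p under 0.05, and none was called with edgeR or DESeq2. Their log2 fold changes were −0.10 to 0.13.

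*Ctnna2*, which codes for αN-catenin, a link of cadherins to actin, was at 53.5 to 89.3 in *Rreb1*+/+ and 130 to 302 in *Rreb1*-/- embryos (log2 fold change 1.37, SE 0.27, adjusted p = 0.0149, limma). The study picked this gene from these embryos, so its direction is not independent evidence. None of the other 14 junction and membrane linkers was called with limma or higher at an unadjusted p under 0.05, and 5 were lower at that level. The share of all genes tested that is lower at that level is not given here, so no trend is read from this count. With edgeR none of the 15 was lower, and with DESeq2 1 was. *Flii*, a gelsolin family gene, was at 2757 to 3090 in *Rreb1*+/+ and 1911 to 2594 in *Rreb1*-/- embryos (log2 fold change −0.39, SE 0.08, adjusted p = 0.0259, limma). This call was lost when any of *Rreb1*+/+ replicates 3 to 6 or mutant replicate 4 was left out (adjusted p up to 0.0707, limma).

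No actin isoform was called over all embryos. With limma 1 of the 5 tested isoforms, *Actg1*, was lower at an unadjusted p under 0.05, and with edgeR and DESeq2 none was called. *Actb* was at 80718 to 93055 in *Rreb1*+/+ and 62685 to 85498 in *Rreb1*-/- embryos (log2 fold change −0.17, SE 0.09, adjusted p = 0.368, limma). *Actg1* was at 19990 to 23810 and 17053 to 21868 (log2 fold change −0.19, SE 0.08, adjusted p = 0.222, limma). *Acta2*, *Actc1* and *Actg2*, the muscle isoforms, had log2 fold changes of −1.77, −0.68 and 0.12 with SE of 1.15, 0.39 and 0.93, and *Acta1* was below the filter. In replicates 2 to 4 alone *Acta2* and *Actc1* were called lower (adjusted p = 0.00292 and 0.0258, limma), and in replicates 5 and 6 alone neither was (adjusted p = 0.773 and 0.747, limma). None of 13 formins, 14 genes of the cofilin pathway and monomer binders, 10 crosslinkers and bundlers, 4 tropomyosins or 3 genes of the SRF list was called with limma. At an unadjusted p under 0.05, 2 formins were higher and 2 lower, and 1 gene of the cofilin pathway and 3 crosslinkers were lower. These counts too stand without the share of all genes tested, and no trend is read from them. With edgeR none of these was called, and with DESeq2 1 formin was higher and 1 crosslinker lower. With the replicate block *Fmn2* and *Pls3* were called higher and *Ssh3* and *Actn1* lower (adjusted p = 0.0345, 0.04996, 0.0497 and 0.0205, limma).

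The genes whose values followed those of 2 members most closely across the 10 embryos, after each genotype's mean was removed, were found on the log2 scale. For *Ablim3* they were the pseudogene *Ube2d-ps* (Pearson r = 0.95), the GDP-fucose transporter gene *Slc35c1* (r = 0.92) and *3110040N11Rik* (r = 0.91). For *Coro1a* they were the histone deacetylase gene *Hdac11* (r = 0.94), *Alas1* of haem synthesis (r = 0.94) and *Wash1* (r = 0.94), which codes for an activator of the Arp2/3 complex on endosomes. The points share size factors and replicate sets, and these genes were the top of 15603.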

How the data were processed

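PolyA RNA from 10 single E7.5 embryos was sequenced with a stranded kit. Per the authors, alignment was with STAR, sorting with Picard and counting with HTSeq, and DESeq gave the size factors. The deposited signal is thus a read count divided by 1 size factor per embryo, on a linear scale. Build, gene models and strand setting were not given in the sources used. Divided by the smallest step of its column, 100% of values came within 0.1 of a whole read, and these reads served the depth, edgeR 4.0.16 and DESeq2 1.42.0.

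A mean of 15 or more in either genotype was required (15603 genes). Genotypes were then compared with limma 3.58.1 in R 4.3.3 on log2(normalized count + 1), with a variance trend and Benjamini-Hochberg adjustment, and called at an adjusted p under 0.05. On this scale the fold change of low genes is understated. The fit was tested on simulated data with 200 changed genes among 15603. The embryos are separate biological replicates. Embryos of the same number in both genotypes deviated together (correlations 0.253 to 0.459, 5 pairs), and the replicate number was tried as a block. Embryos of different numbers were not compared in this way, so pairing by number is not shown.

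Positions, exonic lengths and overlaps were taken from GENCODE M21 (GRCm38; 15565 tested genes matched), and upstream sequences from RefSeq (GRCm38.p6). Named genes were the 9 members, their relatives, the actin isoforms, up to 4 called genes of each list and the 3 closest genes of *Ablim3* and *Coro1a*. The members and lists were chosen with earlier results of these data known. 1 related gene is not reported here.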

Additional observations from a re-analysis of the deposited data

How the results depend on the processing

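Over all genes, 486 were called higher and 179 lower. These counts were 506 and 168 with edgeR on the recovered reads, 785 and 428 with DESeq2, 716 and 356 with the replicate block, 83 and 24 with the Y-linked covariate, 338 and 225 in replicates 2 to 4 alone and 85 and 21 in replicates 5 and 6 alone. Leaving out 1 embryo gave 342 to 436 and 95 to 207. TMM factors, quantile normalization, a pseudocount of 5, a mean of at least 50 and no filter gave 454 to 502 and 171 to 186. Of the actin lists, 4 genes were called higher and 1 lower. This became 6 and 3 with DESeq2, 6 and 4 with the replicate block, 1 and 0 with the Y-linked covariate, 4 and 3 in replicates 2 to 4 and 2 and 0 in replicates 5 and 6. Leaving out 1 embryo gave 3 to 5 and 0 to 1, and no actin gene was called lower once any of *Rreb1*+/+ replicates 3 to 6 or mutant replicate 4 was dropped. The cause of these shifts was not tested, and smaller sets of embryos also hold fewer values. Of 189 log2 fold changes of members under 21 alternatives, 186 moved by less than the spread between embryos. The replicate block, the mean of at least 50 and no filter could not move these values. Fits that leave out 1 embryo share all their embryos with the main fit. The count is thus not a measure of robustness. The 3 that moved further were *Pfn1* (−0.33), *Coro1c* (−0.27) and *Coro2a* (−0.23) with the Y-linked covariate. With 1 mutant embryo low in Y-linked counts, genotype and sex can be told apart only through that embryo.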
